A study of Homo sapiens with 2 samples.

Results

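The 10 genes described here serve the HLA class II route of antigen presentation: the transactivator gene CIITA and the promoter-binding factor gene RFX5, the chain genes HLA-DRA, HLA-DPA1 and HLA-DPB1, the invariant chain gene CD74, and the peptide-loading genes HLA-DMA, HLA-DMB, HLA-DOA and HLA-DOB. They were chosen by name, with earlier results of the same arrays known, and each was read by every probe set that the array annotation pairs with that symbol alone. This gave 24 probe sets for the 10 genes, of 41091 probe sets for 19775 genes in all.

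Expression was measured on Affymetrix HG-U133 Plus 2.0 arrays in SU-DHL-1 cells. This established line comes from an anaplastic large cell lymphoma (ALCL) and expresses the fusion gene NPM1-ALK. The cells had been electroporated with a commercial non-targeting control siRNA (siCTR) or with an siRNA that targets HLX, an NKL homeobox gene (siHLX), and the comparison was made to find genes downstream of HLX. There was 1 array per siRNA, so no replicate error exists and no test or p-value is given; every difference below is on the log2 scale, siHLX minus siCTR, and describes these 2 arrays. In bulk RNA, fewer cells that express a gene and less RNA per cell cannot be told apart.

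HLA class II molecules are pairs of an alpha and a beta chain that display peptides from endosomes to CD4+ T-cells. B-cells, dendritic cells and macrophages carry them at all times, and human T-cells gain them on activation. CIITA does not bind DNA itself: it docks onto a complex of RFX factors, CREB and NF-Y assembled on the X and Y boxes in the promoters of class II genes, and its own level usually sets theirs. CD74 blocks the peptide groove during transport, HLA-DM exchanges the remnant of CD74 for peptide, and HLA-DO holds HLA-DM back.

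The promoters of 7 of these genes are shown because the X box and the Y box are the DNA through which CIITA is tethered. RefSeq promoter windows (GRCh38.p14, 250 bases before to 50 after a transcript start) were found for 8 of the 10 genes. Capitals mark the letters CCNAG, with which the X box begins in these promoters, and, where present farther along, ATTGG or its complement CCAAT, the core of the Y box bound by NF-Y. The search letters were chosen after these sequences had been read. Each stretch is 54 bases, written 5′ to 3′ on the coding strand, which is the plus strand for HLA-DPB1 and the minus strand for the others.
HLA-DPB1, chr6:33075849-33075902: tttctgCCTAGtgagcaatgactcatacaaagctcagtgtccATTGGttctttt
HLA-DPA1, chr6:33073704-33073757: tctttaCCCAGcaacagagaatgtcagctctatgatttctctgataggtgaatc
HLA-DOA, chr6:33009648-33009701: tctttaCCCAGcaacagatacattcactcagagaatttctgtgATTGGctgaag
HLA-DOB, chr6:32817088-32817141: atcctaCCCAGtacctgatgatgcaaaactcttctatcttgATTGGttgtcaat
HLA-DMA, chr6:32953166-32953219: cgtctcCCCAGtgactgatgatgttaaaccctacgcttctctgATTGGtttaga
HLA-DMB, chr6:32941072-32941125: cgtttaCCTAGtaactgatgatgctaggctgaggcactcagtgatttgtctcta
CD74, chr5:150412947-150413000: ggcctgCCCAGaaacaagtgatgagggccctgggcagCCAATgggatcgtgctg

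In the promoters of HLA-DPB1, HLA-DOA, HLA-DOB and HLA-DMA, CCNAG was followed by ATTGG on the same strand with 35 to 37 bases from the first letter of one to that of the other. Counted on both strands, 0.834% of all 35116 promoter windows held such a pair. HLA-DMB and HLA-DPA1 had the first set of letters, but ATTGG did not follow it within the stretch shown, and in CD74 the complement CCAAT followed 31 bases on. ATTGG on either strand was found in 34.6% of all windows and TGATGATG in 0.94%, the latter in HLA-DMA, HLA-DMB and HLA-DOB among the class II genes. Of the HLA-DP genes, which gave the largest upward readings below, HLA-DPB1 held the pair and HLA-DPA1 did not. These matches describe letters and not bound sites.

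Both arrays had a median log2 intensity of 4.87. HLX, the target of the siRNA, read 8.15 under siCTR and 7.70 under siHLX, a difference of -0.45. Of the ALCL and T-cell markers, all 10 lay above the level threshold of 4.865, the median level of all probe sets that were not controls; the CD30 gene TNFRSF8 read 9.92 under siCTR and 9.79 under siHLX, and the lowest differences of this list were those of the T-cell genes CD247 (5.54 and 4.92, -0.62) and CD7 (5.63 and 5.08, -0.55). Poly-A control transcripts, added before labelling, were lower on the siHLX array by a mean of -0.29 (SD 0.18, 24 probe sets). Scaling to equal poly-A controls would add 0.29 to every difference given here, would bring the median of all genes from -0.01 to 0.28 and leaves the order of the genes as it is. It would turn 5 of the 24 differences below from negative to positive, as named at each.

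CIITA, the master regulator, read lower on the siHLX array with its brighter probe sets. Probe set 210925_at read 5.63 under siCTR and 4.78 under siHLX, a difference of -0.85 or 0.555 times the control level. Probe set 205101_at read 5.08 under siCTR and 4.25 under siHLX, a difference of -0.83. The dimmest, 211884_s_at, went the other way, from 3.74 to 4.20, a difference of 0.46. The mean over the 3 probe sets was -0.41 and their SD, which is technical, was 0.75. Only 210925_at had a mean level above the threshold, and its siHLX value was below it. Among named probe sets within 0.5 log2 units of the same mean level, 6.63% differed by at least as much in either direction for 210925_at, 8.85% for 205101_at and 30.4% for 211884_s_at. This share is a description of how widely such dim probe sets scatter.

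RFX5, the DNA-binding subunit of the RFX complex, was read far above the threshold and differed little. Probe set 202963_at read 9.13 under siCTR and 9.17 under siHLX, a difference of 0.04. Probe set 202964_s_at read 7.89 and 7.73, a difference of -0.16 that becomes positive with equal poly-A controls. Of like-level probe sets, 81.9% and 44.3% differed by at least as much.

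**Figure D1:**
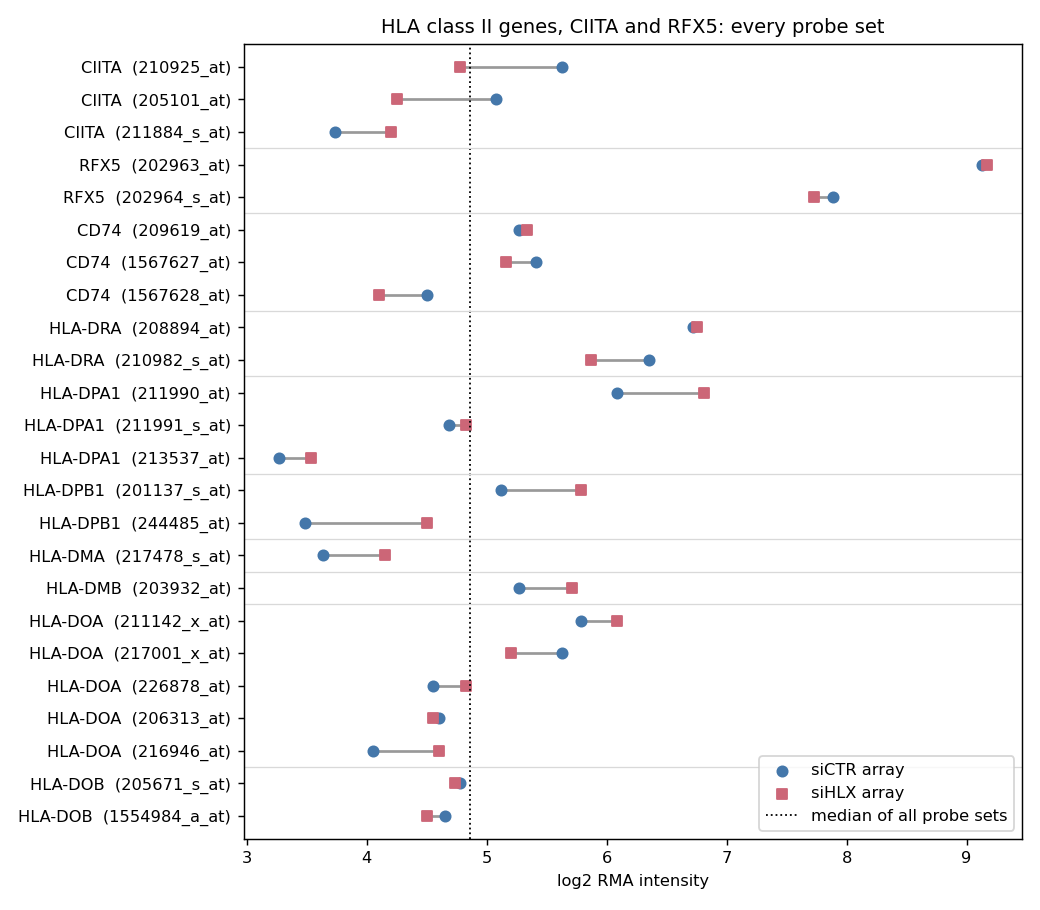
Log2 RMA intensity (x axis) of all 24 probe sets of the 10 genes (y axis) on the siCTR array (circles) and the siHLX array (squares), with the median of all probe sets as a dotted line. RFX5 lies at 7.73 to 9.17 and the other genes between 3.27 and 6.81; the 2 upper CIITA probe sets are lower under siHLX and all 5 probe sets of HLA-DPA1 and HLA-DPB1 are higher.

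HLA-DPA1 and HLA-DPB1 encode the alpha and beta chains of the HLA-DP molecule, and all 5 of their probe sets read higher under siHLX, with a median difference of 0.67. The brightest probe set of HLA-DPA1, 211990_at, went from 6.09 under siCTR to 6.81 under siHLX, a difference of 0.72 or 1.65-fold. Of like-level probe sets, 2.37% differed by at least as much, the lowest such share among the 24. The other probe sets of HLA-DPA1 read 4.69 and 4.83 (difference 0.14) and 3.27 and 3.54 (difference 0.27), each below the threshold on both arrays. Differences at least as large were seen in 78.7% and 40.6% of probe sets of like level. The sizes thus differed within the gene, although the sign did not.

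HLA-DPB1 went from 5.12 under siCTR to 5.79 under siHLX on 201137_s_at, a difference of 0.67 or 1.59-fold. Its other probe set, 244485_at, went from 3.49 to 4.50, a difference of 1.01, the only reading of the 24 at 2-fold or more. Both of its values lay below the threshold. Among all 41091 named probe sets, 1.33% reached 2-fold in either direction, and 0.635% did so upward. Of like-level probe sets, 12.0% differed by at least as much as 201137_s_at and 2.60% by at least as much as 244485_at.

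HLA-DRA, the alpha chain of HLA-DR, gave divided readings. Probe set 208894_at read 6.72 under siCTR and 6.75 under siHLX, a difference of 0.03. Probe set 210982_s_at read 6.35 and 5.87, a difference of -0.48. All 4 values lay above the threshold, so the brightness of the probe sets does not separate them.

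CD74, the invariant chain, likewise gave mixed signs. Probe set 209619_at read 5.27 under siCTR and 5.34 under siHLX, a difference of 0.07. Probe set 1567627_at read 5.41 and 5.16, a difference of -0.25 that turns positive with equal poly-A controls, and 1567628_at read 4.50 and 4.10, a difference of -0.40. The SD between the 3 differences, 0.24, was larger than the size of their mean, -0.19.

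The genes of HLA-DM, the peptide exchange factor, had a single probe set each. HLA-DMA went from 3.64 under siCTR to 4.15 under siHLX, a difference of 0.51, and both values were below the threshold. HLA-DMB went from 5.27 to 5.71, a difference of 0.44, with both above it. Of like-level probe sets, 25.0% and 29.1% differed by at least as much, so differences of this size were common among probe sets as dim as these.

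HLA-DOA, the alpha chain of the HLA-DM inhibitor HLA-DO, was read by 5 probe sets that did not share a sign. The brightest, 211142_x_at, read 5.79 under siCTR and 6.09 under siHLX, a difference of 0.30. The next, 217001_x_at, read 5.63 and 5.20, a difference of -0.43. The suffix _x_at marks probe sets that may also bind other transcripts, and both HLA-DOA probe sets above the threshold carry it. The 3 dimmer ones differed by 0.28, -0.05 and 0.55, and the negative of these turns positive with equal poly-A controls. The mean over all 5 was 0.13 (SD 0.38 between probe sets).

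HLA-DOB, the beta chain of HLA-DO, lay just below the threshold with both probe sets. Probe set 205671_s_at read 4.78 under siCTR and 4.74 under siHLX, and 1554984_a_at read 4.65 and 4.50. The differences of -0.04 and -0.15 were small for this level, where 96.0% and 77.4% of probe sets differed by at least as much, and both turn positive with equal poly-A controls.

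Over all 24 probe sets, 14 read higher and 10 lower under siHLX, with a median of 0.06. Of all named probe sets 46.8% read higher. Read by its brightest probe set, each of 8 genes lay above the threshold; HLA-DOB with a mean level of 4.76 and HLA-DMA with 3.90 lay below it, and CIITA at 5.21 and CD74 at 5.31 were the closest above. Of the 8, RFX5, CD74, HLA-DRA, HLA-DPA1, HLA-DPB1, HLA-DMB and HLA-DOA were higher and CIITA was lower. Their median difference was 0.19, beside -0.01 over all 12135 genes above the threshold, of which 47.4% were higher. The split and the median rest on the brightest probe sets. With probe sets averaged per gene, CIITA and HLA-DPB1 dropped below the threshold, RFX5, CD74 and HLA-DRA turned lower at -0.06, -0.19 and -0.23, and 3 genes were higher and 3 lower with a median of 0.04. Without _s_at and _x_at probe sets the median was 0.06, with 5 higher and 1 lower.

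None of the 8 genes reached 2-fold, a size reached by 0.832% of all genes above the threshold. At 1.5-fold, CIITA, HLA-DPA1 and HLA-DPB1 were past the limit, 3 of 8, beside 5.04% of all genes above the threshold and 12.7% of the 4452 genes between the threshold and a level of 7, where all 8 but RFX5 lay. The genes had been chosen with these differences known, so the counts carry no weight of their own.

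**Figure D2:**
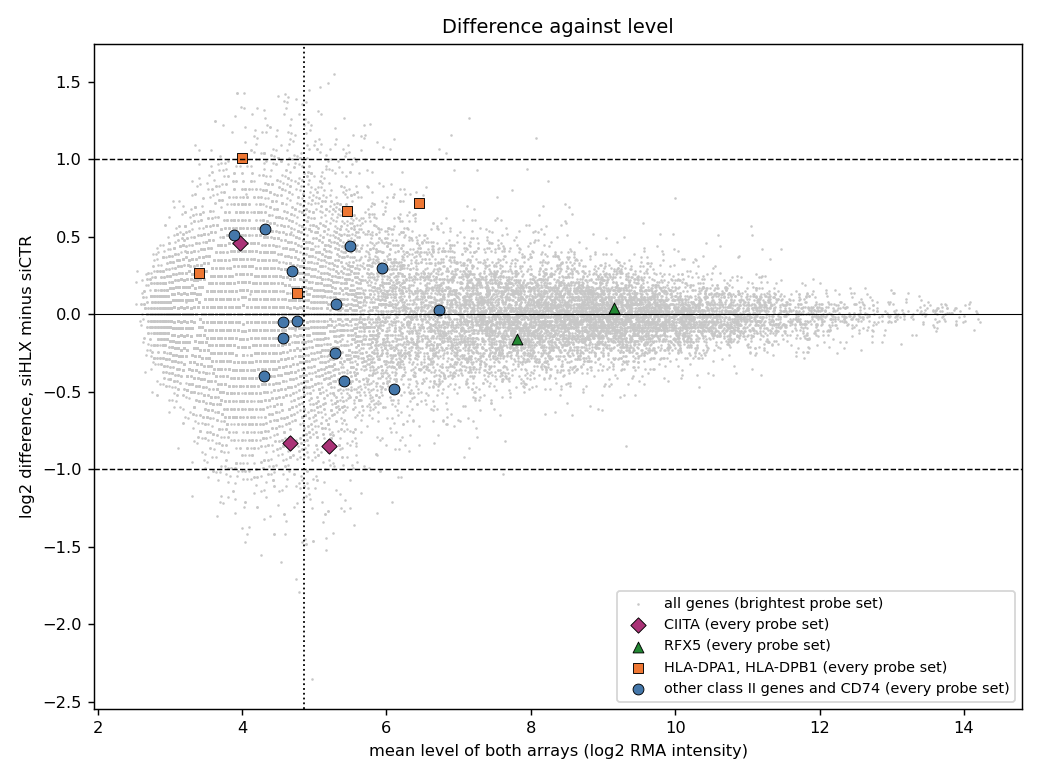
Log2 difference, siHLX minus siCTR, (y axis) plotted on mean level (x axis, log2 RMA intensity, average of the arrays); grey points are all genes by their brightest probe set, coloured symbols are all 24 probe sets of the class II genes, the dotted line is the level threshold of 4.865 and dashed lines mark 2-fold. The CIITA readings at -0.85 and -0.83 and the HLA-DPA1 reading at 0.72 lie in the outer part of the cloud, which is wide at these levels, and the dimmer HLA-DPB1 reading at 1.01 lies on the 2-fold line.

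Set against its regulator, each of the 8 genes other than CIITA and RFX5 stood above CIITA when every gene was read by its brightest probe set. The distance ran from 0.81 for HLA-DOB, 0.88 for HLA-DRA and 0.92 for CD74 to 1.52 for HLA-DPB1 and 1.57 for HLA-DPA1, with a median of 1.22. All 19 probe sets of these genes, with differences from -0.48 to 1.01, were above both low CIITA readings. Against the remaining CIITA probe set, 211884_s_at, at 0.46, the median distance was -0.09, and 5 of the 19 probe sets were higher. The order of CIITA and its usual targets therefore rests on which CIITA probe set is read. Apart from the HLA-DP genes, the remaining 14 probe sets split evenly into 7 higher and 7 lower, with a median of -0.005.

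The genes that build the promoter complex with RFX5 were read well above the threshold. RFXAP, RFXANK, NFYA, NFYB, NFYC and CREB1, the 6 of 7 listed partners with a probe set of their own, ranged in level from 7.88 to 9.25. Of these, 2 were higher and 4 lower under siHLX, with a median of -0.13 that becomes 0.16 with equal poly-A controls. RFXAP, a subunit of the RFX complex, went from 8.68 to 8.45, a difference of -0.23, whereas its dimmer probe set gave 0.08. RFXANK, the third RFX subunit, read 8.88 and 8.93.

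Coactivators that work with CIITA went both ways. Of 11 genes above the threshold, 7 were higher and 4 lower, with a median of 0.03; with probe sets averaged per gene 5 were higher and 6 lower, with a median of -0.05. KAT2B, an acetyltransferase, had the lowest difference at -0.33 (7.08 under siCTR, 6.75 under siHLX), followed by NCOA1 at -0.27, while the zinc finger gene ZXDA had 0.26. The dimmer NCOA1 probe sets had 0.22, -0.30 and -0.10. The acetyltransferase genes EP300 and CREBBP had 0.05 and 0.10 on their brightest probe sets. EP300 had -0.15 on its other probe set. The other CREBBP probe sets had 0, -0.55 and, below the threshold, 0.15.

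Genes that act on the promoters of CIITA were lower in 9 of 14 cases and higher in 4, with 1 equal on both arrays and a median of -0.10, or 0.19 with equal poly-A controls. With probe sets averaged per gene the split turned to 7 higher and 6 lower, and without _s_at and _x_at probe sets to 5 and 4, both with a median of 0.015. This list holds the interferon-gamma receptor route and repressors alike, which need not move together. IFNGR1 and IFNGR2, the receptor chains, had -0.14 and -0.10. JAK1 had -0.10 on its brightest probe set and 0.31 and 0.12 on the others above the threshold. JAK2 had -0.23, and below the threshold -1.02 (5.12 under siCTR, 4.10 under siHLX) and -0.23. IRF1, which activates the interferon-responsive CIITA promoter, had -0.14 on the brighter and 0.22 on the dimmer probe set. PRDM1, a repressor of CIITA in plasma cells, was read at 8.18 on both arrays by its brightest probe set. Its other probe sets, also above the threshold, had -0.20 and -0.33. The deacetylase gene HDAC2 had 0.20 on its brighter and -0.17 on its dimmer probe set, and the DNA methyltransferase gene DNMT1 had -0.21. IFNG itself read 3.44 under siCTR and 3.59 under siHLX, below the threshold.

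Of the endosomal enzymes that cut CD74 and antigens, 8 of 11 with a probe set lay above the threshold, 6 of them higher and 2 lower, with a median of 0.11. SPPL2A, a membrane protease that clears the CD74 stump, had 0.22 on its brightest and -0.23 and -0.14 on its other probe sets. The cathepsin gene CTSL was read at 12.18 under siCTR and 12.05 under siHLX. CTSS, the main cathepsin for CD74 in B-cells and dendritic cells, read 4.69 and 3.94, below the threshold, a difference of -0.75. Its other probe sets gave -0.46 and 0.23.

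Genes of class II turnover and costimulation had a median of 0.02, with 4 of 7 higher and 2 lower. CD80 had 0.38 at a level close to the threshold, CD58 had 0.20 on its brightest probe set and CD4, the coreceptor for class II, had -0.33. The other CD58 probe sets had -0.06 and -0.01 above the threshold and -0.35 and 0.40 below it. CD83, which keeps class II molecules at the surface, read 7.01 on both arrays.

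The class II genes lie among other genes of the major histocompatibility complex on chromosome 6, which allowed a look at their immediate neighbours. Between HLA-DRA and HLA-DPB1, in the gene order of GRCh38.p14, 6 of the 7 class II genes described here read higher and HLA-DOB lower, with a median of 0.44. Other HLA class II genes, such as HLA-DQB1, were left out of this comparison. Their readings had both signs and are given at the end. With probe sets averaged per gene 5 of the 7 were higher, HLA-DRA being lower as well, and the median was 0.38. The 5 listed neighbours within this stretch, TAP2 to PSMB9 between HLA-DOB and HLA-DMB and BRD2 between HLA-DMA and HLA-DOA, did not read higher: TAP2, PSMB8, TAP1 and BRD2 had -0.13, -0.14, -0.16 and -0.06, and PSMB9 had no difference. With equal poly-A controls these 5 would lie above 0 as well. The neighbours were read at levels from 8.27 to 10.09, where differences scatter less than at the dim levels of the class II genes.

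**Figure D3:**
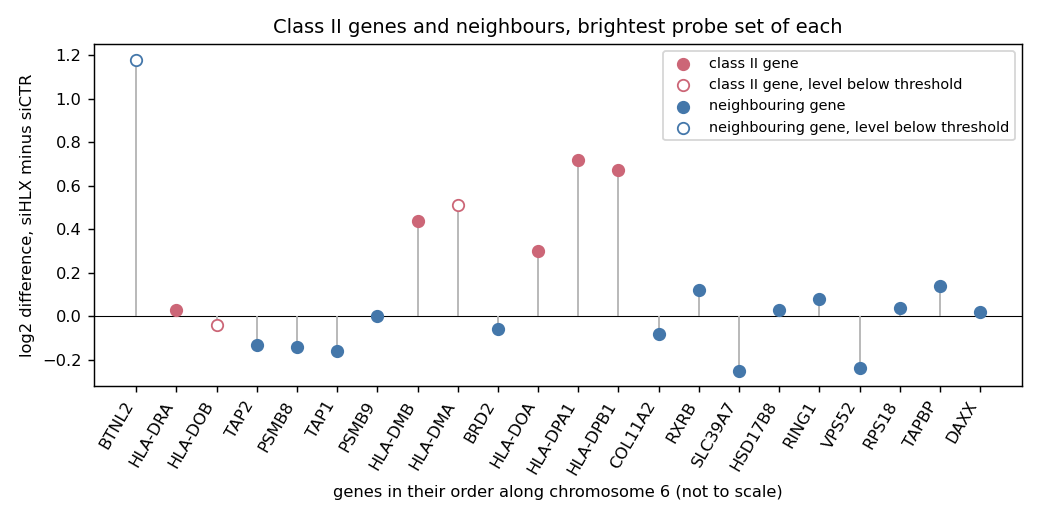
Log2 difference, siHLX minus siCTR, (y axis) of the class II genes described here and listed neighbours, in their order along chromosome 6 (x axis, not to scale). Each gene is read by its brightest probe set, and open circles have a mean level below the threshold. Other HLA class II genes are left out. HLA-DMB, HLA-DMA, HLA-DOA, HLA-DPA1 and HLA-DPB1 lie between 0.30 and 0.72, whereas HLA-DRA and HLA-DOB read 0.03 and -0.04; TAP2, PSMB8, TAP1 and PSMB9, between HLA-DOB and HLA-DMB, and BRD2, between HLA-DMA and HLA-DOA, lie between -0.16 and 0, or above 0 with equal poly-A controls; BTNL2, at the edge, read 1.18 below the threshold.

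Class I presentation, the parallel route for cytosolic peptides, differed little when each gene was read by its brightest probe set. Of 17 genes, all above the threshold, 2 were higher, 13 lower and 2 equal, with a median of -0.06 (0.23 with equal poly-A controls) and a range from -0.47 to 0.21. With probe sets averaged per gene, 6 were higher and 10 lower, with a median of -0.01. Without _s_at and _x_at probe sets, 5 were higher and 6 lower, with a median of -0.05. NLRC5, the class I counterpart of CIITA, read 5.47 under siCTR and 5.0 under siHLX, and this -0.47 from a single probe set was the lowest value of the list. TAPBP and PDIA3, of the peptide-loading complex, were the higher ones with 0.14 and 0.21. HLA-B, HLA-C, HLA-E and B2M, the light chain of class I molecules, had differences from -0.03 to -0.02 on their brightest probe sets. Their other probe sets had both signs. They ran from -0.37 for HLA-E (9.64 under siCTR, 9.27 under siHLX) to 0.28 for B2M (5.16 and 5.44).

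**Figure D4:**
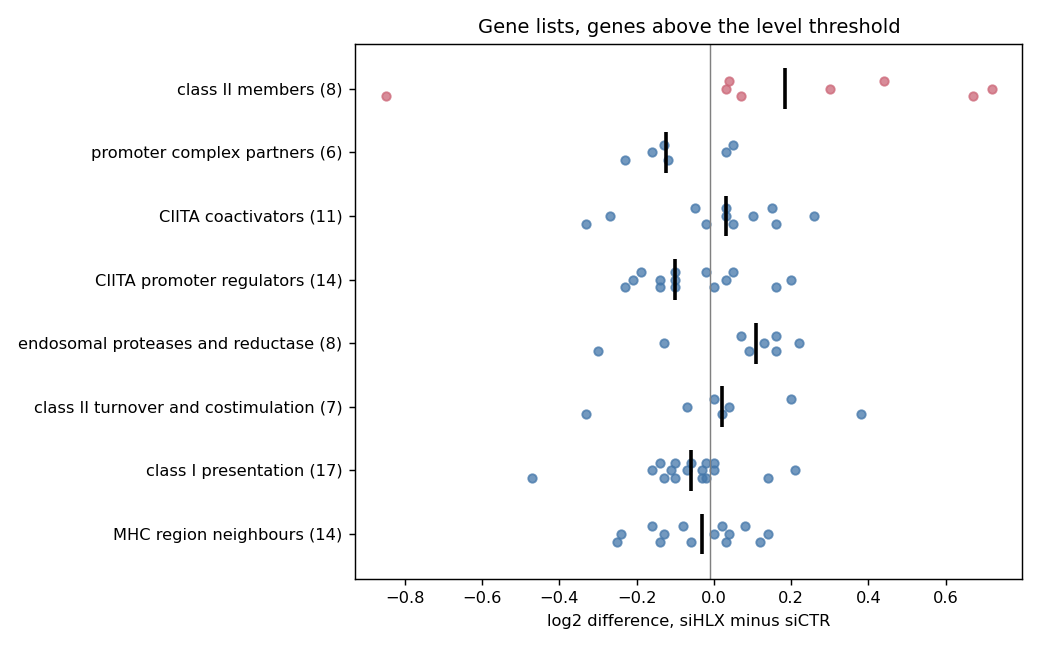
Log2 difference, siHLX minus siCTR, (x axis) of the genes above the level threshold in 8 lists (y axis, number of genes in parentheses); points are genes, black bars list medians and the grey line the median of all genes, -0.01. The class II genes spread from -0.85 for CIITA to 0.72 for HLA-DPA1, and class I genes from -0.47 to 0.21.

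Cells that carry class II molecules at all times have markers of their own, whose range of levels overlapped that of the class II genes. A smaller share of these markers lay above the threshold than of the class II genes and their regulators, 8 of 10 by brightest probe set. Of the B-cell markers, 3 of 8 lay above the threshold; levels ran from 2.84 to 6.81, and the summed linear intensity was 253 under siCTR and 261 under siHLX. By brightest probe set, MS4A1, CD79B, BLNK, CR2 and EBF1 lay below the threshold. CD79A was read at 6.57 and 6.81, CD22 at 5.33 and 5.54, and PAX5 at 5.37 and 5.04. The other probe set of CD79A read 4.92 and 5.12 and that of PAX5 4.35 and 4.25. All other CD22 probe sets lay below the threshold. Of the myeloid and dendritic markers, 2 of 8 lay above it, with levels from 3.18 to 6.23 and sums of 190 and 210. CD14 and LYZ lay below the threshold, and CSF1R went from 5.79 to 6.23. Which cells gave these marker readings was not tested in this established line. The part of unspecific binding in the class II readings was not tested.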

How the data were processed

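RNA of SU-DHL-1 cells was hybridised to 2 arrays, 1 with siCTR and 1 with siHLX, grouped by the treatment in the labels. The log2 intensities per probe set were deposited by the authors with 2 decimals. Per the study's methods, RMA background correction and quantile normalisation had been applied using limma and affy, whose versions are not given in the sources used here. Quantile normalisation sets the overall brightness equal, so differences are relative to most other probe sets. The number of arrays limits the precision.

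Of 54613 non-control probe sets, the platform annotation paired 41091 with 1 gene and 1801 with several. By Entrez identifier 41037 were found in RefSeq (GRCh38.p14), and 0 symbols changed. A gene was read by its brightest probe set (mean of the arrays) and used in counts when that mean was at or above 4.865. All members and HLX were named, and from most lists examples among the 2 highest and 2 lowest genes above the threshold; all other genes, such as the class I chains, the neighbours among the class II genes and genes below the threshold, were named for their role or place after values had been seen. Members and lists were chosen with earlier results of these data known. Alternatives were 4 scalings, the mean of all probe sets, leaving out _s_at and _x_at probe sets, other level thresholds, a 1.5-fold limit and other CIITA probe sets. Analyses used Python 3.11.15, pandas 2.3.3 and statsmodels 0.14.6. The 2-fold call was tested on the differences of these arrays, shuffled among probe sets of like level, with known shifts added to some genes. The other steps were not tested in this way.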

Additional observations from a re-analysis of the deposited data

How the results depend on the processing

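With 1 array per group no replicate could be left out. No paired analysis was possible because each group held a single array. Changes were measured against the SD of differences among probe sets of the same gene, pooled over genes, 0.27. Median centring, lowess and quantile normalisation moved no list median and none of the 24 probe sets by as much, changed no sign among the 24, and left the count of class II genes past 2-fold at 0. The deposited values were already quantile normalised, with a median of 4.87 on both arrays. Centring and repeated quantile normalisation could therefore hardly move them and are no check of the results. Scaling to equal poly-A controls added 0.29 throughout: the median over the 24 probe sets became 0.34, with 19 higher and 5 lower, and HLA-DPA1 alone reached 2-fold (1 gene, beside 1.57% of all genes). List medians became 0.47 for class II genes, 0.16 for promoter complex partners, 0.32 for coactivators, 0.19 for CIITA promoter regulators, 0.40 for endosomal enzymes, 0.31 for turnover and costimulation, 0.23 for class I presentation, 0.26 for neighbours, 0.24 for ALCL and T-cell markers, 0.50 for B-cell markers and 0.63 for myeloid markers, beside 0.28 for all genes. At 1.5-fold the count of class II genes was 3. With CIITA read by 211884_s_at the median distance of the targets was -0.09. The mean of all probe sets gave -0.41 for CIITA and 0.38 for HLA-DPA1, and turned the split of class II genes from 7 higher and 1 lower to 3 and 3 (median 0.04), of CIITA promoter regulators from 4 and 9 to 7 and 6 (median 0.015) and of coactivators from 7 and 4 to 5 and 6 (median -0.05). With that mean, class I presentation went from 2 higher and 13 lower to 6 and 10 (median -0.01). Without _s_at and _x_at probe sets the class II median was 0.06 and HLA-DPB1 read 1.01, while regulators (0.015, 5 higher and 4 lower) and neighbours (0.03) changed sign. Class I presentation then had 5 higher and 6 lower (median -0.05). Genes past 2-fold in all numbered 101, and 191 with equal poly-A controls, 50 with the mean of all probe sets, 274 without a threshold, 3 with the 75th percentile and 612 at 1.5-fold.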

Other observations

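A further 25 probe sets carry names of other HLA class II genes and pseudogenes and took no part above; they were looked at after the values of the members had been seen. Of the 19 paired with a single gene, 10 were higher and 9 lower under siHLX, with differences from -0.96 to 0.62, and 4 lay above the level threshold. The 6 paired with several genes gave 2 higher and 4 lower, from -0.35 to 0.55, and only 1 lay above the threshold, at a mean level of 6.29. Class II genes are related in sequence and several vary between people, so the level read can depend on which alleles a probe set fits. Both arrays hold the same cell line, and a part of allele fit in these differences was not tested. The pseudogene HLA-DPA2, a relative of HLA-DPA1, read 4.96 under siCTR and 4.20 under siHLX, a difference of -0.76 at a mean level below the threshold. The lowest of the 25 differences, -0.96, was 1 of 7 readings of HLA-DQB1, also below the threshold; the other readings of this gene ran from -0.08 to 0.62.

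BTNL2, a butyrophilin-like gene next to HLA-DRA, went from 3.69 under siCTR to 4.87 under siHLX, a difference of 1.18 with a mean level below the threshold. CD86, a costimulatory partner of CD80, read 3.99 and 4.83 on its brightest probe set, a difference of 0.84, and 0.25 and -0.18 on the others, all below the threshold.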
